A study of Mus musculus with 12 samples.

Results

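Gene expression in the nucleus accumbens was compared between mice killed 1 h after their first injection of cocaine and mice killed 1 h after an injection of saline. The nucleus accumbens is the ventral part of the striatum and a target of midbrain dopamine neurons. The 6 arrays of the comparison were chosen from the sample labels alone, as the 3 arrays of acute cocaine and the 3 of saline among the 12 arrays of the series. All mice were C57BL/6J, aged 8 to 10 weeks, and each received 15 daily intraperitoneal injections. Saline mice received 15 injections of saline, and acute mice received 14 of saline followed by 1 of cocaine-HCl at 20 mg/kg, so both groups had the same number of injections. A pair of further groups enters below where stated. Repeated mice had 7 injections of saline and then 8 of cocaine, and withdrawal mice went through 7 days of cocaine and 7 of saline before 1 challenge dose of cocaine, each dose again 20 mg/kg. Each array carried RNA from bilateral punches of 4 mice, 1 mm thick and taken with a 15-gauge needle, which makes 12 mice per group and 3 pools per group. The series title concerns repression of G9a, a histone methyltransferase, by repeated cocaine, and the comparison asks which transcripts differ within 1 h of a first exposure.

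Cocaine blocks the transporters that clear dopamine, serotonin and noradrenaline from the synapse. In medium spiny neurons, the projection neurons of the striatum, dopamine acting on D1 receptors raises cyclic AMP and, together with glutamate, activates protein kinase A and the ERK kinases. These kinases phosphorylate factors already bound to DNA, among them CREB at cyclic AMP response elements and the partners of serum response factor at CArG boxes. The genes that respond within minutes without new protein synthesis are the immediate early genes. Many encode transcription factors of the Fos, Jun, Egr and Nr4a families, others encode effectors such as Arc, and a further group encodes phosphatases and other inhibitors that switch the kinases off again.

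Expression was measured with the Illumina MouseWG-6 v2.0 array, on which each probe is carried by beads. The values are log2 intensities after the authors' background subtraction and quantile normalization, with values under 10 intensity units set to 10, which is 3.32 on the log2 scale. Of 45281 probes, 25478 were tested, namely those with a detection p below 0.05 on 3 or more of the 12 arrays. Between 22189 and 23803 probes were detected per array. Each gene is represented by its brightest tested probe, which gave 12732 genes. Levels of different genes are not compared, since each probe has its own brightness. Differences are acute minus saline on the log2 scale with standard errors from a limma fit over all 12 arrays, and positive values mean higher after cocaine.

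The punches held striatal tissue on every array. Ppp1r1b, which encodes the dopamine- and cyclic AMP-regulated phosphoprotein DARPP-32, lay at 13.93, 13.84 and 14.01 in saline replicates 1, 2 and 3 and at 14.09, 14.17 and 13.80 in acute replicates 1, 2 and 3. The D1 receptor gene Drd1, like Ppp1r1b named as a defining marker after its values were seen, lay at 12.17, 11.99 and 12.14 in saline and at 12.08, 11.75 and 12.25 in acute mice, and the groups overlapped for both genes. Of 12 measured markers of medium spiny neurons, 10 were higher and 2 lower after cocaine, with a median difference of 0.11.

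The arrays differed in markers of tissue outside the striatum, and this did not follow the treatment alone. Slc17a7, the vesicular glutamate transporter of cortical neurons, was named after its values were seen and lay at 6.83, 10.23 and 4.82 in saline and at 8.82, 7.85 and 9.68 in acute mice. Neurod2, a transcription factor of cortical glutamatergic neurons, lay at 5.12, 8.02 and 3.46 in saline and at 6.90, 6.51 and 7.84 in acute mice. Tbr1, a cortical T-box factor, lay at 4.20, 7.97 and 3.32 in saline and at 6.92, 6.17 and 7.71 in acute mice. Saline replicates 1 and 3 were thus low for all 3 genes, while saline replicate 2 was above every acute array. The thalamic and hypothalamic glutamate transporter Slc17a6 lay at 6.32, 9.09 and 6.47 in saline and at 8.05, 8.20 and 8.69 in acute mice, again with replicate 2 the high one among the saline arrays. The whole list of cortical neuron markers had 8 measured members of 10, of which 6 were higher and 2 lower after cocaine, with a median difference of 0.26, and their summed intensity ran from 5700.6 to 8155 in saline and from 6183 to 7835 in acute arrays. For Slc17a7 the repeated arrays ran from 4.08 to 9.54 and the withdrawal arrays from 6.23 to 10.04. Because the samples are bulk tissue, more cells of a type and more RNA per cell cannot be told apart. A second fit, chosen after these values were seen, therefore carried the mean of Slc17a7, Neurod2 and Tbr1 on each array as a covariate, and its values are given beside a number of the results. With it Slc17a6 went from 1.02 ± 0.90 to 0.14 ± 0.39.

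**Figure D1:**
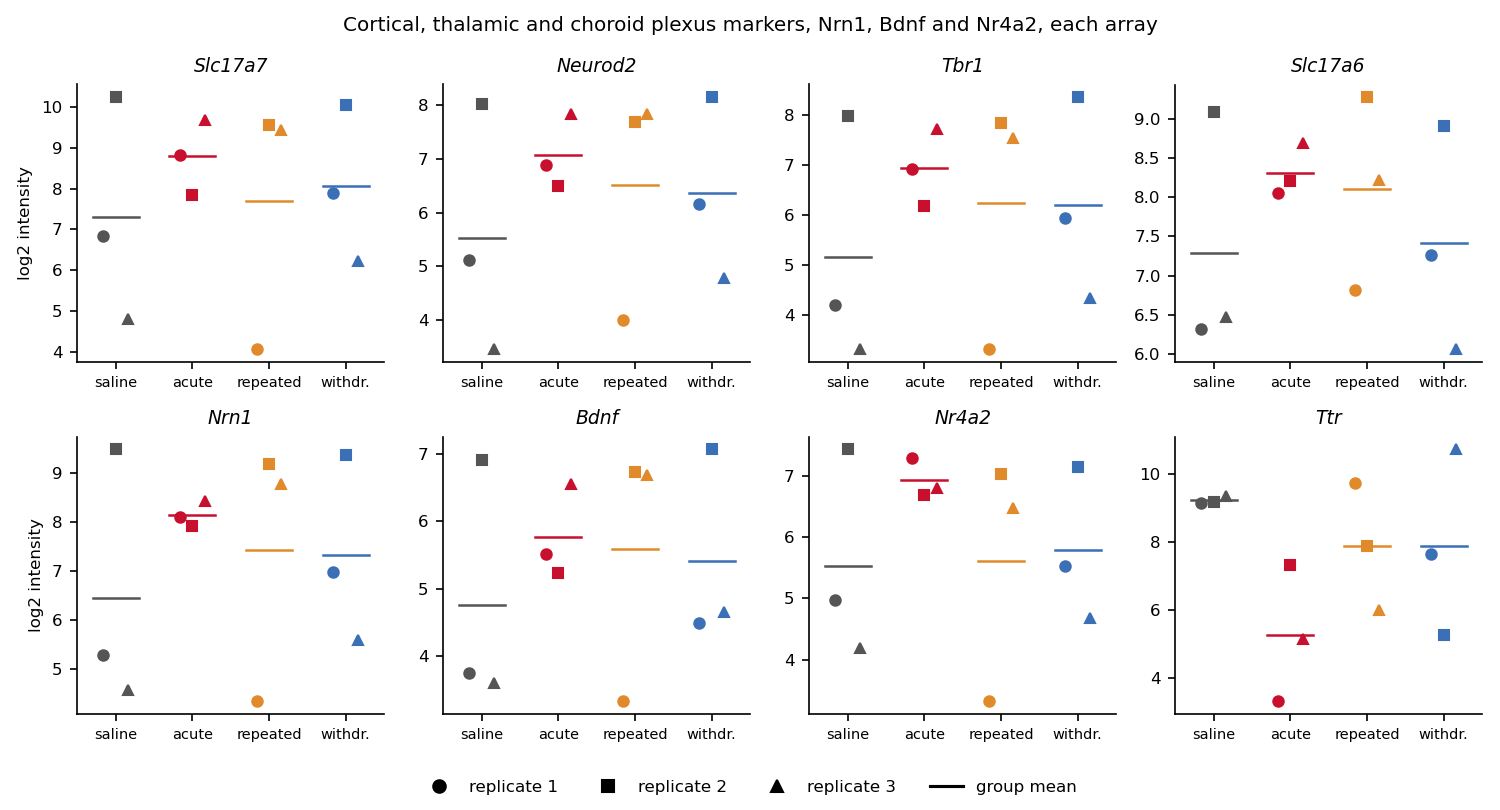
Log2 intensity of 8 genes on each of the 12 arrays, by group (withdr. is withdrawal), with a symbol for each replicate and a line at the group mean. Slc17a7, Neurod2, Tbr1, Slc17a6, Nrn1, Bdnf and Nr4a2 are low on saline replicates 1 and 3 and on repeated replicate 1 and high on saline replicate 2, whereas Ttr is between 9.15 and 9.35 on the saline arrays and lower on every acute array.

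In 27025 mouse promoters of RefSeq (GRCm38.p6), cut from 250 bases before to 50 bases after the transcription start, the sequences read by the early kinase targets can be looked up. The promoters of Egr2, Egr4, Junb, Fosl2 and Tiparp are printed 5′ to 3′ because, of the immediate early and effector genes with a listed promoter, these 5 had the smallest p in the comparison. Capitals mark every match on either strand to the CRE core TGACG, the full CRE TGACGTCA, which contains that core, the CArG box and the EGR site GCGNGGGCG.
Egr2: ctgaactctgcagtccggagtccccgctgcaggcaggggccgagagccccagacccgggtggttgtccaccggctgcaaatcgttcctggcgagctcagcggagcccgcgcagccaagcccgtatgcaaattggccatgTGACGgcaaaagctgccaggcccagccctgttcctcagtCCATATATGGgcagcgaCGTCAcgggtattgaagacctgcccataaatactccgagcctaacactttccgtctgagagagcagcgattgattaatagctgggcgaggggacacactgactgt
Egr4: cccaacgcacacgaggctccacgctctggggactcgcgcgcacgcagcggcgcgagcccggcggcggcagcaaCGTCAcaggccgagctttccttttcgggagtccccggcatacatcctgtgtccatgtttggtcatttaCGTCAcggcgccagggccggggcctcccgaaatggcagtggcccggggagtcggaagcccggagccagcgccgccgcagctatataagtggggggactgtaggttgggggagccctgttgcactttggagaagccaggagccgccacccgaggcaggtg
Junb: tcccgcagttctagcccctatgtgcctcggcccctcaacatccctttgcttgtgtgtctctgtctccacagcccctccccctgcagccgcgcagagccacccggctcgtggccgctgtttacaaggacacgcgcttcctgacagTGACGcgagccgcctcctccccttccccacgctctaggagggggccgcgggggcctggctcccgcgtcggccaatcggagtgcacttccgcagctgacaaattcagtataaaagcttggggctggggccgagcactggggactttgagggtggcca
Fosl2: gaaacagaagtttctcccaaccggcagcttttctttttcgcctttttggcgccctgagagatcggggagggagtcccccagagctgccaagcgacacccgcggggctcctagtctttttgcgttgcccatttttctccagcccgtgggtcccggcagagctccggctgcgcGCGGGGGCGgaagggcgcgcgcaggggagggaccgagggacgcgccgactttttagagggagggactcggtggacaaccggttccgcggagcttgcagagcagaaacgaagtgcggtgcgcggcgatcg
Tiparp: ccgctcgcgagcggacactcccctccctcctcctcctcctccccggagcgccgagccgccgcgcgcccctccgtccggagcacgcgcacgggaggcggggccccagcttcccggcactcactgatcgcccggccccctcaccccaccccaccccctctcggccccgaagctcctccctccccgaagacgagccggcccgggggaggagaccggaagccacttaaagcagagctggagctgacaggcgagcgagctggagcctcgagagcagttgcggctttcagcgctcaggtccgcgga
The Egr2 window (chr10:67537619-67537918, plus strand, 1 of 5 windows listed for the gene) holds a CArG box at 72 to 63 bases before the start, with a CRE core on each side of it at 111 to 107 and at 55 to 51 bases. The Egr4 window (chr6:85513540-85513839, minus strand) holds CRE cores at 177 to 173 and at 109 to 105 bases before the start. The Junb window (chr8:84978699-84978998, minus strand) holds 1 CRE core at 106 to 102 bases. The Fosl2 window (chr5:32136222-32136521, plus strand) holds an EGR site at 79 to 71 bases, and the Tiparp window (chr3:65528197-65528496, plus strand) holds none of the 4 motifs. Among all 27025 promoters, 20.7% hold a CRE core, 1.80% a full CRE, 1.57% a CArG box and 5.46% an EGR site. Of the 16 immediate early transcription factors with a listed promoter among the 21 measured, 12 hold a CRE core, 2 (Egr2 and Srf) a CArG box, 5 an EGR site and 0 a full CRE. Of 18 activity-induced effectors with a listed promoter, 9 hold a CRE core and 2 (Scg2 and Plk2) a full CRE. These matches describe letters in a fixed window and are not evidence of binding.

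Most transcription factors encoded by immediate early genes had a higher mean 1 h after the first cocaine injection, though none passed the adjusted test. Of 30 listed, 21 were measured, 2 had no named probe and 7 (Nr4a1, Ier2, Ier5, Atf3, Klf10, Maff and Btg2) were detected on too few arrays. The mean was higher after cocaine for 19 and lower for 2, with a median difference of 0.37, against 49.1% higher and a median of −0.003 over all 12732 genes. In 11 of the 21 every acute array lay above every saline array, and in 0 below, where 3.1% of all genes lay wholly above and 4.17% wholly below. In 9 the difference met the criteria of the series text, a 1.3-fold minimum joined to a p under 0.05 before adjustment, which 1.04% of all genes met in the upward direction and 1.1% in the downward. The measured members had been filtered on detection on any 3 of the 12 arrays, and 18 of the 21 were detected on all 12, with a median of 0.38. After Benjamini-Hochberg adjustment of the limma p-values over all probes no member was under 0.05, and the lowest adjusted p was 0.174.

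The EGR family of zinc finger transcription factors was higher in all 4 members. Egr2 lay at 8.94, 8.79 and 8.21 in saline and at 9.97, 10.44 and 10.25 in acute mice, a gap of groups that did not overlap. The difference was 1.57 ± 0.22 (SE, n = 3 per group), or 2.98-fold, with a 95% interval from 1.09 to 2.06 and a limma adjusted p of 0.174. On the signals before background subtraction the difference was 1.44 and passed the adjusted test, with a limma adjusted p of 0.00448. It did not pass in the other settings that left out no single array. There the limma adjusted p ran from 0.0679 (detection on all 12 arrays) to 0.966 (a fit on the groups compared only). Egr4 lay at 11.24, 11.29 and 10.84 in saline and at 11.62, 12.14 and 11.66 in acute mice (0.69 ± 0.17). Egr1, the family member long used to map active neurons, was bright on every array, at 13.47, 13.49 and 13.27 in saline and 13.68, 13.96 and 13.79 in acute mice (0.40 ± 0.11). Egr3, a factor induced in striatal neurons by dopamine, lay at 12.09, 11.87 and 12.12 in saline and at 12.21, 12.41 and 12.30 in acute mice (0.28 ± 0.14). The acute arrays were above the saline arrays for each of the 4 genes.

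Subunits of AP-1, the dimer of a Fos and a Jun protein, differed among themselves. Fosl2, which encodes the Fos-related protein FRA2, lay at 8.89, 8.99 and 8.67 in saline and at 9.21, 9.59 and 9.90 in acute mice (0.72 ± 0.19). Junb lay at 9.33, 9.67 and 9.35 in saline and at 9.88, 10.44 and 10.05 in acute mice (0.67 ± 0.18), while a second, dim Junb probe gave 0.08. Fosb, the gene of the long-lived splice form ΔFosB that accumulates with chronic drug exposure, lay at 8.14, 8.06 and 7.83 in saline and at 8.28, 8.55 and 9.24 in acute mice (0.68 ± 0.26). In these 3 genes the groups did not overlap, although acute replicate 1 of Fosb was close to saline replicate 1 and the Fosb difference was 0.40 without acute replicate 3. The probe cannot tell the Fosb splice forms apart. Fos itself lay at 8.51, 9.55 and 8.11 in saline and at 9.34, 9.45 and 10.07 in acute mice (0.90 ± 0.32). The Fos groups overlapped because saline replicate 2, the array with the highest cortical markers among the 6 compared, was above acute replicates 1 and 2. Leaving that array out gave a Fos difference of 1.31, and leaving out saline replicate 3 gave 0.59. With the cortical covariate the differences were 0.68 ± 0.27 for Fos, 0.59 ± 0.16 for Fosl2 and 0.71 ± 0.19 for Junb. Jun was at 0.37 ± 0.22 with overlapping groups and at 0.18 ± 0.15 with the covariate, and Jund, a largely constitutive subunit, was at −0.06 ± 0.16.

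Factors outside these families included Crem, whose groups were narrow and well apart. Crem encodes the cyclic AMP response element modulator, whose short products repress the genes that CREB activates. It lay at 6.36, 6.35 and 6.45 in saline and at 6.85, 7.06 and 6.86 in acute mice (0.54 ± 0.09), and its groups did not overlap. The 3 dimmer Crem probes gave 0.39, 0.11 and 0.04. Npas4, a factor induced by calcium entry in neurons, lay at 6.55, 7.66 and 7.25 in saline and at 7.87, 8.12 and 7.96 in acute mice (0.83 ± 0.24), with the spread lying mainly among the saline arrays and a difference of 0.53 without saline replicate 1. With the cortical covariate Crem was at 0.55 ± 0.10 and Npas4 at 0.80 ± 0.27. Csrnp1 at 0.30 ± 0.12 and Bhlhe40, a repressor of the clock, at 0.20 ± 0.13 also had no overlap between groups. The second fit gave 0.31 for Csrnp1 and 0.23 for Bhlhe40.

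Nr4a2, which encodes the orphan nuclear receptor NURR1, had the widest saline group of these factors. It lay at 4.98, 7.43 and 4.19 in saline and at 7.29, 6.68 and 6.80 in acute mice, a difference of 1.39 ± 1.06. Saline replicate 2 was above all 3 acute arrays, and the difference was 2.33 without that array and 0.29 ± 0.29 with the cortical covariate. The other 7 measured members, Srf (the serum response factor itself), Cebpb, Klf4, Klf6, Nr4a3, Myc and the Jund already given, had differences from −0.08 to 0.26 and overlapping groups. With the cortical covariate Nr4a3 went from 0.26 to 0.08 and Klf4 from −0.08 to −0.26. Nr4a3 and Myc were near the detection limit, detected on 0 and 1 saline arrays and on 2 and 1 acute arrays.

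**Figure D2:**
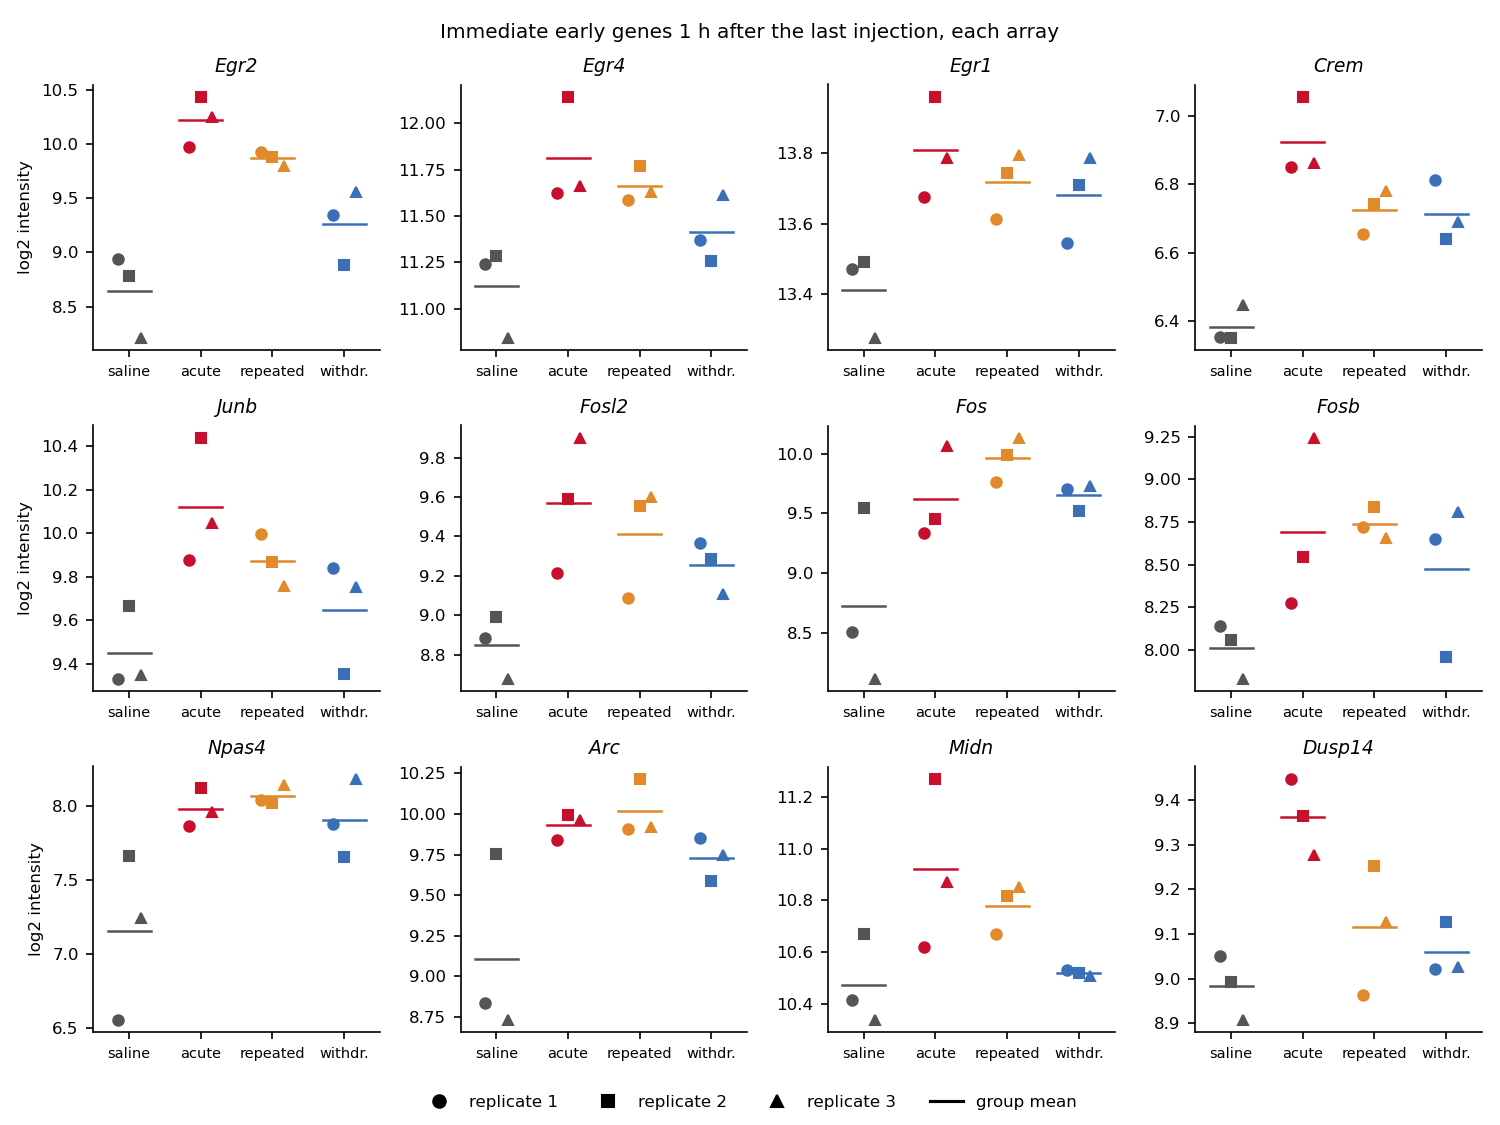
Log2 intensity of 12 immediate early, effector and feedback genes on each array of the 4 groups (withdr. is withdrawal), with a symbol for each replicate and a line at the group mean; each vertical axis has its own range and does not start at 0. The 3 acute arrays of Egr2 lie between 9.97 and 10.44, above the 3 saline arrays between 8.21 and 8.94, while Fos, Arc and Npas4 have their highest saline value on replicate 2.

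Effector genes of neuronal activity, which act at synapses and in signalling, were mostly higher as well. Of 30 listed, 25 were measured, 19 with a higher and 6 with a lower mean, and the median difference was 0.16. In 5 every acute array lay above every saline array and in 1, Nptx2, below. Over all genes 49.1% had a higher mean, 3.1% lay wholly above and 4.17% wholly below. Arc, whose protein takes part in the removal of AMPA receptors from synapses, lay at 8.83, 9.76 and 8.73 in saline and at 9.84, 9.99 and 9.96 in acute mice (0.83 ± 0.23). The acute arrays were close together and just above saline replicate 2. The Arc difference was 1.15 without saline replicate 2, 0.64 without saline replicate 3 and 0.69 ± 0.22 with the cortical covariate. Tiparp, a mono-ADP-ribosyltransferase, was not detected on any saline array and was detected on all 3 acute arrays, at 4.56, 4.26 and 4.87, which makes it at least 1.57-fold higher. This bound, like the others below, sets the undetected group at the lowest detected value of each array. Detection on the 3 acute arrays alone was enough for Tiparp to pass the detection filter. Midn, which encodes a nuclear protein that delivers other immediate early proteins to the proteasome, lay at 10.41, 10.67 and 10.34 in saline and at 10.62, 11.27 and 10.87 in acute mice (0.45 ± 0.16), a second Midn probe gave 0.46, and the difference was 0.27 without acute replicate 2. Fbxo33, an F-box protein of ubiquitin ligases, was at 0.28 ± 0.12, and Coq10b, a mitochondrial coenzyme Q-binding protein chosen after its value was seen, at 0.26 ± 0.11, both with no overlap.

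A pair of effectors with large differences had wide saline groups. Nrn1, encoding the neurite-promoting protein neuritin, lay at 5.30, 9.48 and 4.57 in saline and at 8.10, 7.92 and 8.42 in acute mice. Bdnf, the neurotrophin gene that cortical axons supply to the striatum, lay at 3.75, 6.92 and 3.59 in saline and at 5.52, 5.23 and 6.55 in acute mice. Both were named after their values were seen. Saline replicate 2 was the highest of the 6 arrays for both genes. The differences of 1.70 ± 1.53 and 1.01 ± 1.15 became 0.09 ± 0.31 and −0.16 ± 0.36 with the cortical covariate. Homer1, a postsynaptic scaffold gene also named after its value was seen, was at 0.05 ± 0.12.

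Feedback inhibitors of kinase and G protein signalling were higher by small amounts. Of 20 listed, 18 were measured, 15 higher and 3 lower, with a median difference of 0.25. Over all genes 49.1% had a higher mean, 3.1% lay wholly above and 1.04% met the series criteria in the upward direction. The median was 0.16 with the cortical covariate and also when acute replicate 2 was left out. Dusp14, a dual-specificity phosphatase, lay at 9.05, 8.99 and 8.91 in saline and at 9.45, 9.37 and 9.28 in acute mice (0.38 ± 0.10). It was the only member to meet the series criteria on its brightest probe. The groups of Dusp6, an ERK phosphatase, and of Dusp4, a nuclear phosphatase of the same family, did not overlap either, with differences of 0.28 ± 0.13 and 0.26 ± 0.15. Both were named after their values were seen, and Dusp6 was at 0.19 ± 0.11 with the cortical covariate. Errfi1, an inhibitor of the EGF receptor, was at 0.33 ± 0.13, Dusp5, which acts on nuclear ERK, at 0.33 ± 0.14, and Dusp1, a phosphatase of p38 and JNK, at 0.32 ± 0.14, with overlap between groups in each. Leaving out 1 array lowered Dusp1 to 0.21 and Dusp6 to 0.17 (saline replicate 3), Dusp5 to 0.22 (acute replicate 3) and Dusp4 to 0.12 (acute replicate 2).

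**Figure D3:**
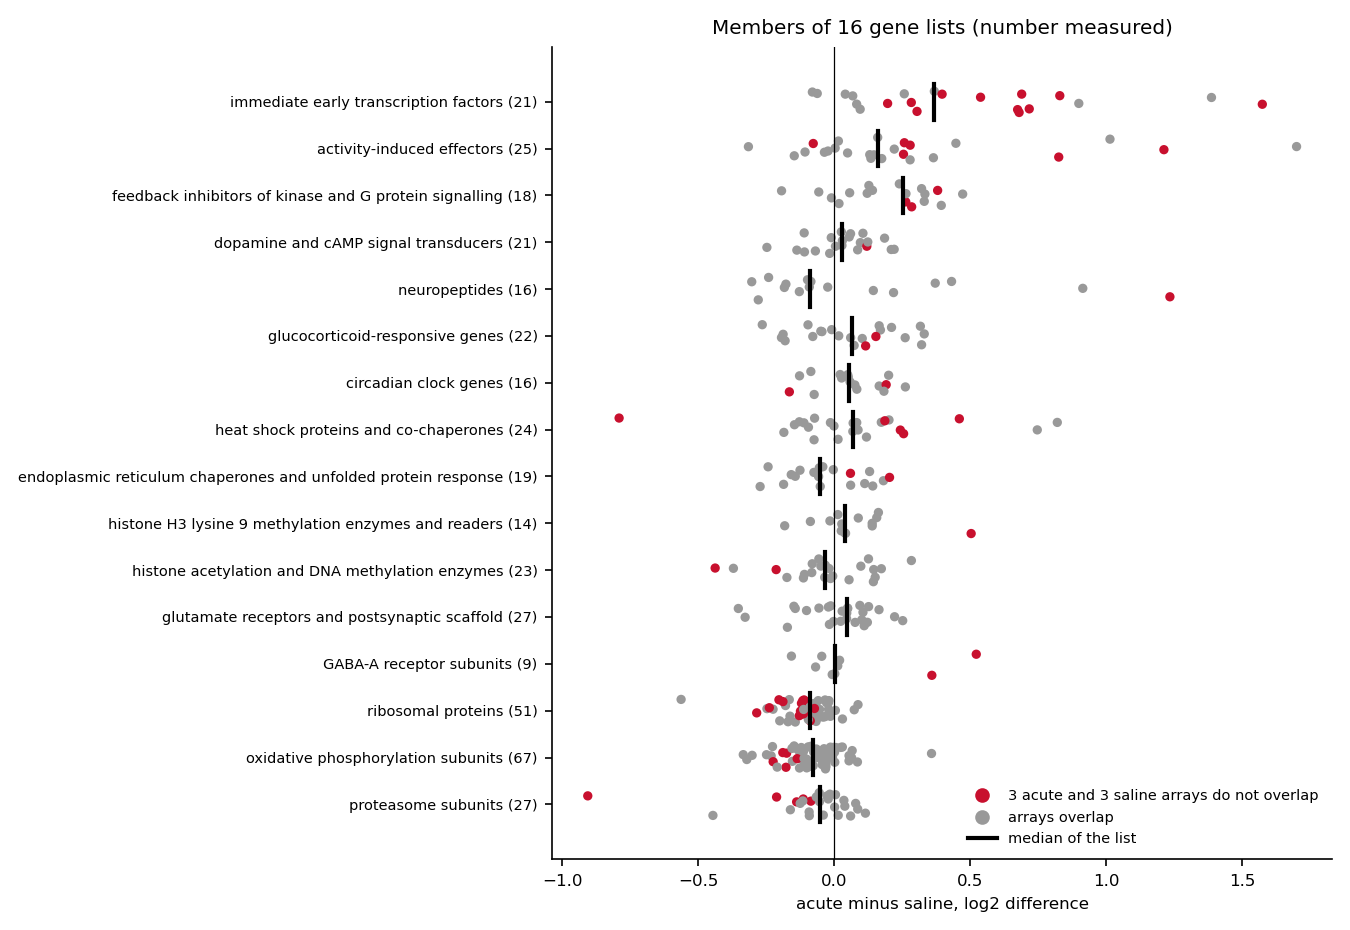
Acute minus saline log2 difference of every measured member of 16 gene lists, with the number measured in brackets, red points for members whose 3 acute and 3 saline arrays did not overlap and a black bar at the median of each list. Immediate early transcription factors reach from −0.08 to 1.57 with 11 red points, while the ribosomal, oxidative phosphorylation and proteasome lists lie just below 0.

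Of 21 measured dopamine and cyclic AMP signal transducers, 14 were higher and 7 lower with a median difference of 0.03, 0 met the series criteria and 1, the striatal regulator Rgs9, had no overlap, at 0.12 ± 0.09. Those shares were 1.04% and 3.1% over all genes in the upward direction, and the Rgs9 difference was 0.06 without saline replicate 2. The phosphoprotein gene Arpp19 was at 0.19 ± 0.09, the exchange factor gene Rasgrf1 at 0.12 ± 0.10 and Prkaca, a catalytic subunit of protein kinase A, at −0.11 ± 0.09. The D2 receptor gene Drd2 was at 0.06 ± 0.12. Of 16 neuropeptide genes 6 were higher and 10 lower. Tac1, which encodes substance P and was named after its value was seen, was at −0.02 ± 0.14, Pdyn, the dynorphin gene, at −0.10 ± 0.10, Penk, the enkephalin gene, at −0.09 ± 0.16 and Nts, neurotensin, at −0.30 ± 0.20. Npy, neuropeptide Y, and Sst, somatostatin, were each at −0.18, with standard errors of 0.14 and 0.16. The groups of these 6 overlapped.

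Rln3, which encodes relaxin 3, a peptide of the nucleus incertus in the hindbrain, was the only neuropeptide gene with no overlap between groups. It was at the floor of 3.32 and undetected on all 3 saline arrays, and at 4.68, 4.74 and 4.24 and detected on all 3 acute arrays. It was thus at least 1.56-fold higher (limma adjusted p = 0.174). Detection on the 3 acute arrays alone was enough for Rln3 to pass the detection filter. The filter and the difference are therefore not independent for this gene, and its p-value is not support for a difference. The signal remained near the detection limit, and on signals before background subtraction the difference was 0.37 with a limma adjusted p of 0.998.

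Heat shock proteins and their co-chaperones had 14 of 24 measured members higher, with a median difference of 0.07. Hspa4l, an HSP110 family member, lay at 6.56, 6.93 and 6.65 in saline and at 6.98, 7.19 and 7.35 in acute mice (0.46 ± 0.16). Dnajb1, the HSP40 partner of HSP70, was at 0.26 ± 0.10 and Hsph1, an HSP110 gene chosen after its value was seen, at 0.24 ± 0.10, and the groups of these 3 genes did not overlap. The inducible HSP70 genes Hspa1b and Hspa1a were at 0.75 ± 0.24 and 0.82 ± 0.36 with overlapping groups, and Hspa1a was at 0.51 without saline replicate 3. These copies are nearly identical, so their probes may share transcripts. Dnajb3, a testis-enriched co-chaperone, lay at 5.49, 5.21 and 5.38 in saline and at 4.69, 4.40 and 4.62 in acute mice (−0.79 ± 0.14). This was against the direction of the other heat shock genes named here, though 10 of the 24 members were lower.

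G9a, the enzyme of the series title, did not differ in transcript level beyond the spread of the arrays. Its gene Ehmt2, whose product methylates histone H3 at lysine 9, lay at 10.20, 10.21 and 10.31 in saline and at 10.08, 10.35 and 10.24 in acute mice. The difference was −0.02 ± 0.10, with a 95% interval from −0.24 to 0.21, and its sign turned when acute replicate 1 was left out (0.06) and with the cortical covariate (0.03). Ehmt1, the gene of its partner, was at −0.09 ± 0.38, and its sign turned as well, at 0.26 without acute replicate 3. Of 14 measured enzymes and readers of H3 lysine 9 methylation, 11 were higher and 3 lower with a median of 0.04. Kdm4a, a demethylase of that mark, had a mean of 4.77 ± 0.21 (SD, n = 3) in saline and of 5.27 ± 0.12 in acute mice. The difference was 0.50 ± 0.22 (SE), and Kdm4a was the only member with no overlap. Its probe is dim, and with a floor of 30 intensity units the Kdm4a difference was 0.34. Of all genes, 3.1% lay wholly above and 4.17% wholly below. The demethylase gene Kdm1a was at 0.16 ± 0.08, the methyltransferase gene Setdb1 at 0.16 ± 0.11 and Wiz, which encodes a partner of G9a, at −0.18 ± 0.11. Among histone acetylation and DNA methylation enzymes 8 of 23 were higher. Dnmt3b, a de novo DNA methyltransferase, was at −0.44 ± 0.19 and Sirt2, a deacetylase abundant in oligodendrocytes, at −0.21 ± 0.10, both with no overlap. The Dnmt3b probe is dim as well, and its difference was −0.29 with a floor of 30. The deacetylase gene Hdac10 was at −0.37 ± 0.19 and the methyl-CpG-binding protein gene Mbd1 at −0.17 ± 0.11, with overlap.

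Receptor genes were divided in direction. Of 27 glutamate receptor and postsynaptic scaffold genes 16 were higher and 11 lower, with a median difference of 0.05. In 0 the groups were free of overlap, where 3.1% of all genes lay wholly above and 4.17% wholly below. The kainate receptor subunit gene Grik4 was at −0.33 ± 0.16, the AMPA receptor subunit gene Gria3 at 0.13 ± 0.10, the NMDA receptor subunit gene Grin2b at −0.17 ± 0.14 and the scaffold gene Dlgap2 at −0.15 ± 0.12. Of 9 genes of GABA-A receptors and GABA synthesis 5 were higher and 4 lower, with a median of 0.002. Gabrg3 lay at 7.58, 7.40 and 7.55 in saline and at 7.95, 7.92 and 7.74 in acute mice (0.36 ± 0.10), and Gabra3 was at 0.52 ± 0.27, or 0.28 without saline replicate 1. Both encode subunits of the inhibitory GABA-A receptor, and in both the acute arrays lay above the saline arrays. The subunit gene Gabrg1 was at −0.16 ± 0.28 and Gad1, which encodes a GABA-synthesising enzyme, at −0.07 ± 0.15. The circadian clock genes had a median difference of 0.06 over 16 measured members. Per1 and Per2, repressors of the clock loop, were at 0.17 ± 0.10, with overlap, and 0.19 ± 0.13 and Cry2, their partner, at −0.16 ± 0.10, the latter 2 with no overlap, and the activator Clock was at 0.26 ± 0.10 with overlap.

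Transcripts of the machinery of protein synthesis, respiration and protein breakdown lay slightly lower after cocaine. Of 51 measured ribosomal protein genes 47 were lower, with a median difference of −0.09, and in 12 every acute array lay below every saline array. Over all genes 50.9% had a lower mean and 4.17% lay wholly below. Of 67 oxidative phosphorylation subunits 56 were lower (median −0.08, 5 without overlap), and of 27 proteasome subunits 18 were lower (median −0.05, 5 without overlap). The median over oxidative phosphorylation subunits was −0.04 without saline replicate 2, −0.12 without saline replicate 3 and −0.11 with the cortical covariate. Rplp2, a subunit of the ribosomal stalk, lay at 13.33, 13.40 and 13.23 in saline and at 13.08, 12.88 and 13.14 in acute mice (−0.28 ± 0.10). Rpl36a was at −0.24 ± 0.09, Rpl21 at −0.22 ± 0.10 and Rpl19 at −0.20 ± 0.09. The complex I genes Ndufb3 and Ndufb10 were at −0.22 ± 0.10 and −0.18 ± 0.09, and the ATP synthase genes Atp5e and Atp5g2 at −0.32 ± 0.14 and −0.19 ± 0.10. The proteasome core genes Psmb1 and Psmb3 were at −0.21 ± 0.08 and −0.14 ± 0.08, and Psmd6 of the regulatory particle at −0.45 ± 0.21. The largest of these differences, that of the proteasome ATPase Psmc6, was −0.91 ± 0.28 on a dim probe and −0.58 without acute replicate 2. No member of these 3 lists passed the adjusted limma test. Against the same saline arrays the ribosomal median was −0.15 in repeated and −0.15 in withdrawal mice. The oxidative phosphorylation medians were −0.11 and −0.14 in these groups, and the proteasome medians −0.09 and −0.09. The lower medians were thus not particular to the first injection.

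Markers of other cells also differed in places. The choroid plexus gene Ttr, which encodes transthyretin, lay at 9.15, 9.18 and 9.35 in saline and at 3.32, 7.32 and 5.17 in acute mice, a difference of −3.96 ± 1.40, and acute replicate 1 was at the floor. The Ttr difference was −3.01 ± 1.21 with the cortical covariate. It was the largest difference of any gene named here, and the repeated and withdrawal arrays spread from 5.27 to 10.73. All 4 measured choroid plexus markers of 8 listed were lower, with a median of −0.21, and the summed intensity of the list was 1646.8 to 2044.4 in saline and 1024.5 to 1409.4 in acute arrays. Only Ttr among them had no overlap between groups, and the others, given below, differed by less than their standard errors. Of 12 microglia markers 10 were lower (median −0.11), with Aif1, the gene of the microglial protein IBA1, at −0.33 ± 0.18. The other Aif1 probes differed from this value. A probe nearly as bright gave −0.13 with overlap between groups. A dim probe, detected on 4 of the 12 arrays, gave 0.59 ± 0.18, with every acute array above every saline array. Tyrobp, an adaptor of microglial receptors, was at −0.20 ± 0.14, the microglial membrane protein gene Tmem119 at −0.19 ± 0.12 and Fcrls at 0.15 ± 0.10. The remaining rule-chosen choroid plexus members Kl, Clic6 and Sostdc1 were at −0.31 ± 0.36, −0.11 ± 0.16 and −0.12 ± 0.31, and Sostdc1 was detected on 1 array of each group. Of 10 markers of endothelium and pericytes 6 were higher and 4 lower, with a median of 0.03, from Pdgfrb of pericytes at −0.41 ± 0.13 and the endothelial adhesion gene Pecam1 at −0.13 ± 0.14 to Slco1a4 at 0.21 ± 0.13 and Kcnj8 at 0.28 ± 0.28. Of 5 blood cell markers 4 were lower, with a median of −0.19. The list was led by the leukocyte antigen gene Cd52 at −0.37 ± 0.12, with the haemoglobin gene Hba-a1 at −0.19 ± 0.20, Alas2 of haem synthesis at −0.27 ± 0.47 and the lysozyme gene Lyz2 at 0.24 ± 0.22. The 12 markers of striatal interneurons were evenly divided, 6 higher and 6 lower, with Slc18a3, the vesicular acetylcholine transporter of cholinergic interneurons, at −0.38 ± 0.14 and the receptor gene Kit at 0.16 ± 0.10. Of the cortical markers, the upper layer factor Cux2 was at −0.50 ± 0.17 and the deep layer factor Fezf2 at 0.44 ± 0.25. None of these markers passed the adjusted test. Whether the choroid plexus, microglial or vascular share of the punches had a part in the differences of other genes was not tested.

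Over all probes the comparison gave few strong differences. None of the 25478 probes had a limma p that stayed under 0.05 after Benjamini-Hochberg adjustment, and 1132 (4.44%) had one before it. With no difference on any probe 1274 would be expected, so there was no excess of small p-values. Of all probes 366 (1.44%) were higher and 339 (1.33%) lower by the series criteria, 705 (2.77%) in all. That total was 1131 when acute replicate 3 was left out and 1108 when saline replicate 3 was. The 12 higher and 12 lower genes with the smallest p among those that met the criteria had no overlap between groups, as the p-value selects for. Of the 12 higher, 5 were detected on all 6 arrays and 6 on no saline array, so many of them lie at the detection limit. A gene detected on the 3 acute arrays alone passes the detection filter through the group where it is high.

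Among the 5 higher genes detected on all 6 arrays, Rnd3 lay at 8.36, 8.22 and 8.28 in saline and at 8.70, 9.02 and 8.89 in acute mice (0.59 ± 0.10). Spty2d1, a histone chaperone, lay at 4.69, 4.81 and 5.03 in saline and at 5.53, 6.06 and 6.05 in acute mice (1.04 ± 0.17). The Spty2d1 probe is dim. The histone gene H4c4 was at 0.70 ± 0.15, also on a dim probe, and histone H4 copies are similar enough that it may read others. On signals before background subtraction the differences were 0.505 for Rnd3, 0.425 for Spty2d1 and 0.24 for H4c4. With Egr2 and Crem these make up the 5. The genes seen on few or no saline arrays were the potassium channel gene Kcnd3, the pluripotency factor gene Pou5f1, the odorant receptor Olfr707, the interleukin receptor Il1r1, Paqr3 and Mslnl. Those with no detected saline array were at least 1.23-fold (Paqr3) to 1.54-fold (Pou5f1) higher.

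Among the lower genes Acad10, of the acyl-CoA dehydrogenase family, lay at 5.30, 5.30 and 5.64 in saline and at 4.31, 4.36 and 4.66 in acute mice (−0.97 ± 0.13, limma adjusted p = 0.174), whereas a second Acad10 probe gave 0.16. Med13l, a subunit of the Mediator kinase module, lay at 6.23, 6.55 and 6.70 in saline and at 5.68, 6.09 and 5.71 in acute mice (−0.66 ± 0.16). Fbxo46, an F-box protein gene, lay at 7.68, 7.52 and 7.58 in saline and at 7.19, 7.24 and 7.12 in acute mice (−0.41 ± 0.10). In all 3 genes the groups were separate. Azin2, an antizyme inhibitor that raises polyamine synthesis, was at −0.62 ± 0.16, and a second Azin2 probe gave −0.10. With a floor of 30 intensity units its brighter probe was at −0.31 ± 0.03 and passed the adjusted test (limma adjusted p = 0.0467). All 3 of its acute values (4.52, 4.66 and 4.60) lie under that floor, which sets them to a single value. The floor thus removes their spread, and this pass is not support for a difference. Smagp (−0.53 ± 0.12), Vps72, a subunit of chromatin-remodelling complexes that handle H2A.Z (−0.39 ± 0.10), Ttf1, a termination factor of RNA polymerase I (−0.73 ± 0.18), and Zc3h7b (−0.93 ± 0.25) were lower too. Nlrp10, Chit1 and Olfr732 were detected on 2 saline arrays each and on 0 acute arrays, and were at least 1.14-, 1.08- and 1.12-fold lower.

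**Figure D4:**
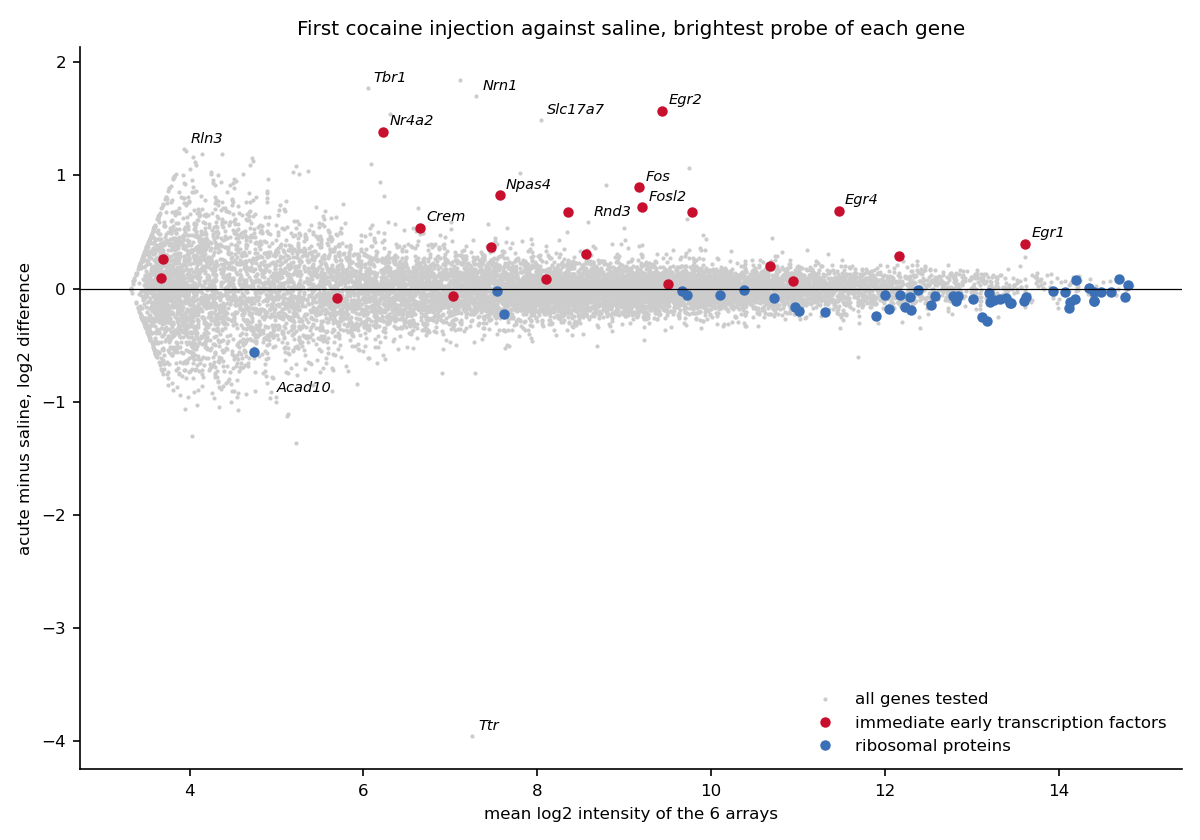
Acute minus saline log2 difference against the mean log2 intensity of the 6 arrays for 12732 genes (grey), with immediate early transcription factors in red and ribosomal protein genes in blue. Egr2 at 1.57 stands above other genes of its brightness, the widest scatter lies at low intensity, and Ttr at −3.96 is the lowest point.

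The same genes were read in the later groups, which were compared with the same 3 acute arrays. Egr2 lay at 9.93, 9.88 and 9.80 in repeated mice and at 9.34, 8.88 and 9.56 in withdrawal mice. Repeated minus acute was −0.35 ± 0.22 (limma adjusted p = 0.879) and withdrawal minus acute −0.96 ± 0.22 (limma adjusted p = 0.848). Of the 21 immediate early factors 13 were lower in repeated than in acute mice and 18 were lower in withdrawal than in acute mice, where 50.3% and 50.2% of all genes were lower, and the median differences were −0.09 and −0.17. Fos was higher in repeated than in acute mice by 0.34 ± 0.32, Npas4 by 0.09 ± 0.24 and Arc by 0.08 ± 0.23. Of all probes 1 (0.00392%), described in the closing section, passed the adjusted test of repeated minus acute. None passed for withdrawal minus acute, where 1440 (5.65%) had a limma p under 0.05 before adjustment, so a change of the early gene response with earlier exposure was not detectable with these arrays.

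Of the 12 higher genes 11 had a mean between saline and acute in repeated mice, and 11 did in withdrawal mice. Rln3 was lower in repeated than in acute mice by 1.09 ± 0.17 on the fitted scale (limma adjusted p = 0.308), with 3.71, 3.32 and 3.38 on the repeated arrays. Acad10 was 0.89 ± 0.13 higher in repeated than in acute mice (limma adjusted p = 0.293). The genes had been picked by their acute values, so these counts are descriptions with no test. Of the 12 lower genes 9 had such a mean in repeated mice, and Dnajb3, Fbxo46 and Azin2 lay further below saline there than in acute mice. In withdrawal mice 9 again lay between, Dnajb3 lay further below saline and Ttf1 lay above it. Dnajb3 was at 4.04, 3.95 and 4.42 in repeated and at 4.14, 4.20 and 4.19 in withdrawal mice. The higher gene outside the range in both groups was Pou5f1, with means under that of saline.

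**Figure D5:**
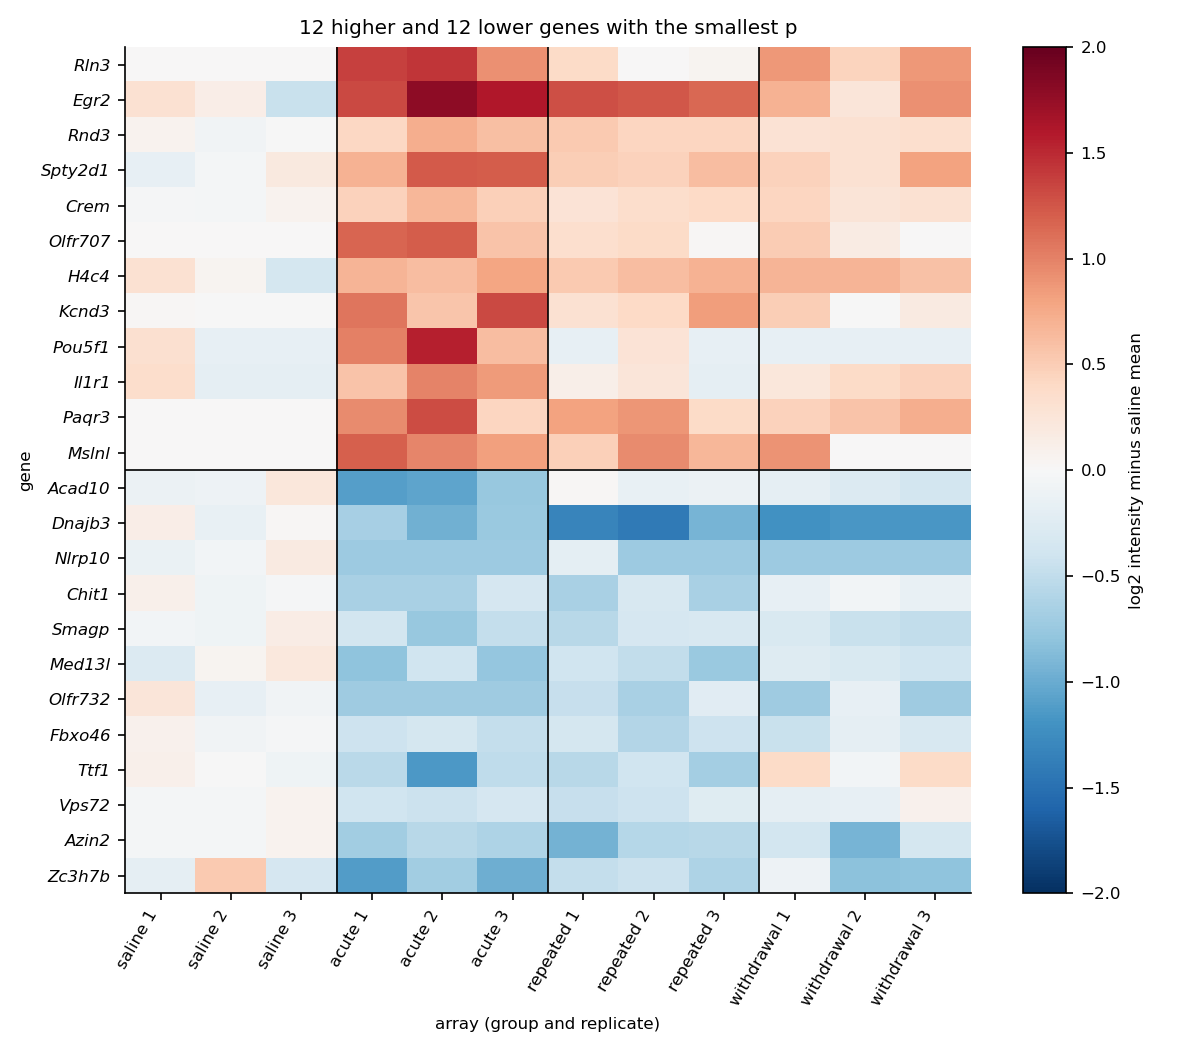
Log2 intensity minus the saline mean on each of the 12 arrays (columns) for the 12 higher and 12 lower genes with the smallest p among those that met the series criteria (rows). Red cells are above and blue cells below the saline mean, and the acute columns are uniformly red for the upper 12 genes and blue for the lower 12, as the choice of genes sets.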

How the data were processed

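RNA of nucleus accumbens punches was measured on 12 arrays in 4 groups of 3, grouped and numbered from the sample labels. Per the series text, BeadStudio (version not given in the sources used) served the authors for background subtraction and quantile normalization of the intensity values. The deposited table used here holds these intensity values on a linear scale. A second deposited table, called raw, holds the same intensities plus a constant of 60.7 together with detection p-values, per the file headers, and both were already quantile normalized. Total signal therefore cannot be compared between arrays.

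Before log2 was taken, signals below 10 were set to 10. Probes with a detection p under 0.05 on at least 3 of 12 arrays were kept. Differences were fitted with limma 3.58.1 (lmFit, eBayes) in R 4.3.3 on all 12 arrays without covariates (8 residual degrees of freedom, 2.16 from the prior). The two-sided p-values were adjusted by the Benjamini-Hochberg method over the 25478 kept probes, with a threshold of 0.05. The pools are separate samples, but single mice were not measured, and 3 arrays per group limit the precision. No source used here names the test behind the p cutoff of the series text, so that of limma stands in for it.

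Gene names came from the platform annotation in GEO. Of 45281 probes, 34885 had 1 symbol, 18 several and 10378 none listed, and entrez numbers of 34807 matched the RefSeq gene table. The genes compared and the 31 gene lists were chosen with earlier results of these data known, so lists are described by counts and medians and carry no test. Named are Ehmt2 and Ehmt1, the 12 genes of each direction with the smallest p among those meeting the series criteria, every measured immediate early transcription factor, and of each other list the members meeting the criteria and the 4 with the smallest p. The lists of medium spiny neurons and their subtypes, of other deep brain neurons, glia other than microglia, ependyma and meninges are given by counts and medians only. Other genes are marked as chosen after their values were seen. Alternatives tried were unsubtracted signals, a floor of 30, detection on all arrays or no filter, a fit on the groups compared only, a replicate block, a block for number 1 against 2 and 3, trended robust variance, other probe rules, leaving out each array and, added after seeing the data, the cortical covariate. The fit was tested on simulated data. Promoters came from RefSeq (GRCm38.p6).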

Additional observations from a re-analysis of the deposited data

Results flagged for a closer look

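The odorant receptor gene Olfr352 passed limma's adjusted test of the difference between repeated and acute mice, at −1.39 ± 0.13 on the log2 scale (limma adjusted p = 0.0229). It lay at 4.75, 5.08 and 4.67 in acute, 4.34, 4.64 and 4.45 in saline, 3.35, 3.46 and 3.53 in repeated and 4.01, 3.97 and 4.22 in withdrawal mice, and was detected on 0 repeated arrays and on all arrays of the other groups. Against saline it was 0.36 ± 0.13 higher in acute and at −1.03 ± 0.13 in repeated mice. The call held in 5 of 21 other settings, with adjusted p from 0.0231 to 0.863.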

How the results depend on the processing

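The count of probes past the adjusted test for acute minus saline was 0 (1132 at an unadjusted p under 0.05). It became 1 with a floor of 30 (Azin2), 1 on unsubtracted signals (Egr2) and 0 to 1 when 1 array was left out (1 without repeated replicate 2). The acute values of Azin2 all lie under the floor of 30, which removes their spread. Repeated minus acute had 1, which became 0 with the cortical covariate, detection on all 12 arrays, a floor of 30, no filter, only the groups compared, the replicate block, unsubtracted signals and trended robust variance, and 0 to 4 when 1 array was left out (4 without acute replicate 3). Withdrawal minus acute had 0 (1440 unadjusted), 1 with no filter and 0 to 1 without single arrays (1 without saline replicate 2). The 705 probes meeting the series criteria became 421 with detection on all arrays, 302 with a floor of 30, 50 on unsubtracted signals, 1132 with no fold minimum, 272 with the brightest probe of a gene only, and 682 to 1131 without single arrays, with 44.1% of them higher without acute replicate 3 and 51.9% with all arrays. The median of the feedback inhibitors was 0.157 with the covariate, 0.177 with a floor of 30, 0.12 on unsubtracted signals and 0.156 to 0.251 without single arrays. Unsubtracted signals carry a constant of 60.7, which by construction shrinks differences of dim genes. The medians of the other 4 lists kept their sign in every setting tried, from 0.286 to 0.463 for immediate early transcription factors without single arrays.

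Of 138 single genes, 6 turned sign in a setting other than leaving out an array. Bdnf was at −0.16, Ehmt2 at 0.026, Slc17a7 at −0.311, Klf6 at −0.092, Clic6 at 0.027 and Myc at −0.085 with the covariate, and Myc at −0.061 on unsubtracted signals. Slc17a7 is part of the covariate along with Neurod2 and Tbr1. The differences of these genes must cancel in that fit, so a turn of sign among them is set by construction. Without single arrays Ehmt2 ran from −0.081 to 0.055, Ehmt1 from −0.431 to 0.26, and Srf from −0.01 to 0.122, Jund from −0.146 to 0.048, Klf4 from −0.16 to 0.032, Klf6 from −0.086 to 0.17, Myc from −0.305 to 0.4, Drd1 from −0.181 to 0.07, Drd2 from −0.043 to 0.158, Tac1 from −0.103 to 0.089 Penk from −0.218 to 0.0, Gabrg1 from −0.354 to 0.166, Gad1 from −0.235 to 0.05, Alas2 from −0.65 to 0.069, Kl from −0.671 to 0.155, Clic6 from −0.209 to 0.016 and Sostdc1 from −0.335 to 0.218. The causes were not tested. Dim genes that lay at the floor on all 6 arrays gave no value under a floor of 30.

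Arrays share numbers across groups, and deviations from the group means of same-numbered acute and saline arrays correlated at 0.459, 0.192 and 0.065. The last misses the rule of over 0.1 in every pair, and the main fit carries no term for the numbers. Same-numbered repeated and saline arrays correlated at 0.468, 0.344 and 0.133, and withdrawal and saline arrays at 0.386, 0.293 and 0.166, which meet that rule. What same-numbered arrays have in common was not tested. With the replicate block 0 probes passed for acute minus saline, 1595 had an unadjusted p under 0.05 and 1043 met the series criteria, and with number 1 blocked against 2 and 3 these were 1435 and 941.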

Other observations

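Glucocorticoid-responsive genes had 13 of 22 measured members higher in acute than in saline mice, with a median difference of 0.07 and 2 without overlap between groups, both higher. Over all genes 49.1% had a higher mean, 3.1% lay wholly above and 4.17% wholly below. Map3k6, a kinase gene of that list, was at 0.26 ± 0.17, with overlap. Chaperones of the endoplasmic reticulum and genes of the unfolded protein response had 7 of 19 higher, with a median of −0.05. The chaperone genes Calr and Hsp90b1 were at −0.27 ± 0.13 and −0.13 ± 0.11, the response factor gene Xbp1 at 0.18 ± 0.13 and Sel1l, of the degradation machinery, at 0.14 ± 0.12, with overlap in each. Markers of astrocytes (5 of 10 higher, median 0.01) and of oligodendrocytes (3 of 8 higher, median −0.02) lay near 0. Markers of direct pathway medium spiny neurons had 4 of 9 higher (median −0.02) and of indirect pathway ones 2 of 5 (median −0.09). Markers of septal, hypothalamic and thalamic neurons had 5 of 8 higher (median 0.05), of oligodendrocyte precursors 4 of 7 (median 0.003), of meninges and fibroblasts 3 of 5 (median 0.02) and of ependyma 1 of 5 (median −0.07). These lists had 0 members that met the series criteria.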
